A study of Mus musculus with 83 samples.

Results

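The 48 genes described here are those of the count table whose mouse symbols have the form Psma to Psmg followed by a number, out of 48795 genes in all. They encode most subunits, activators and assembly factors of the proteasome. They were measured by RNA sequencing of total RNA from pools of 125 neurons, which were cut by laser from frozen frontal cortex, the mice being male C57BL/6 with no transgene or treatment named. Each pool was collected for 1 of 4 neuron types, recognised by staining for a marker. These were pyramidal cells (PYC, marker Slc17a7) and the interneurons that contain parvalbumin (PV, marker Pvalb), somatostatin (SST, marker Sst) or vasoactive intestinal peptide (VIP, marker Vip). Mice were young (2 months, 9 mice) or old (22 months, 12 mice). Each type had 12 old libraries, with 9 young libraries for PYC, SST and VIP and 8 for PV, which makes 83. There were more libraries than mice at each age, so some pools shared mice. No label ties a library to a mouse, so whether pools of 1 type also shared mice is not known. The p-values measure the spread between these libraries.

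The proteasome is the cell's main machine for breaking down proteins tagged with ubiquitin. Its core particle is a barrel of alpha and beta rings, in which the alpha subunits form the gate and 3 of the beta subunits do the cutting. The regulatory particle caps the barrel: its non-ATPase subunits bind and strip ubiquitin, and its ring of ATPases unfolds the substrate and feeds it in. In neurons the proteasome is known for its part in synaptic plasticity and in the removal of damaged proteins.

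The promoters of 4 members named in the results below are shown. No expression result was tied to a promoter. Psma1 was the only member that edgeR called over all libraries in any comparison after the filter on low counts. Psmb5 and Psmb8 encode a constitutive catalytic subunit and the inducible subunit that can take its place. Psmd4 was among the most abundant members. Each sequence is from RefSeq on GRCm38.p6, on the gene's own strand, and runs from 250 bases before the annotated start to 50 after it. They lie at chr7:114276067-114276366 on the minus strand for Psma1, chr14:54617946-54618245 on the minus strand for Psmb5, chr17:34197945-34198244 on the plus strand for Psmb8 and chr3:95042565-95042864 on the minus strand for Psmd4. Capitals mark the letters of TGACNNNGC, the core of the antioxidant response element, and of CCAAT, the box bound by NF-Y, on either strand (CCAAT on the other strand reads ATTGG).
Psma1: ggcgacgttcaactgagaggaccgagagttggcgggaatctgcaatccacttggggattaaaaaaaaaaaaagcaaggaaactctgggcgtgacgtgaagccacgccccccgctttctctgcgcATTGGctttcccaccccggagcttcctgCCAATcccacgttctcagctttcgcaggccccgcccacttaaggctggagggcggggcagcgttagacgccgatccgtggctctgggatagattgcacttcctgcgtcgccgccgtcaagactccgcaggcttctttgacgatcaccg
Psmb5: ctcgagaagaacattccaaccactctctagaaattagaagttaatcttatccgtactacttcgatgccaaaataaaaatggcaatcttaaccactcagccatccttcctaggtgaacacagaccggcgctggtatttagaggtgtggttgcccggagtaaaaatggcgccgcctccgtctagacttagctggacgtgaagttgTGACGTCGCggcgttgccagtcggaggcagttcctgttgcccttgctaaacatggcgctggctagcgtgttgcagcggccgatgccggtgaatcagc
Psmb8: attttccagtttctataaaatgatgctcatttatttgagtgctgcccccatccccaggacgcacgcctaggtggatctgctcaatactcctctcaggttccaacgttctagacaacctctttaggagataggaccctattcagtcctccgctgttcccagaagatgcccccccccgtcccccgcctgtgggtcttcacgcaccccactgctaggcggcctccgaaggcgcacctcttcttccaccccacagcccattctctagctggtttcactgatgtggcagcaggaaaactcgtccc
Psmd4: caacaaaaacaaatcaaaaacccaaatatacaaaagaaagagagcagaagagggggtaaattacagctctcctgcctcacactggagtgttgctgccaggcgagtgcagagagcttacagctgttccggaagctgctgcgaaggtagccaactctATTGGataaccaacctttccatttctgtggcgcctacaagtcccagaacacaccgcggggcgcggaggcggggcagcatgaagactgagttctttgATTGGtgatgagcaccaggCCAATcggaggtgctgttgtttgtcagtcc
The Psma1 promoter held 2 CCAAT matches and the Psmd4 promoter 3, while the Psmb5 promoter held 1 TGACNNNGC match and the Psmb8 promoter neither. The RefSeq table held promoters for 40 of the 48 members, 43 promoters in all. TGACNNNGC stood in 6 of the 43 (14%), against 12.4% of all 32851 promoters of that length. CCAAT stood in 14 of the 43 (32.6%), against 37.4% of all promoters. These are matches of letters and say nothing about binding.

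The libraries held 1.46 to 27.2 M counts each (M, 1e6), median 6.99 M, and no pair was identical. The captured types carried their markers. Gad1, a GABA-synthesising enzyme, had a median of 33.6 CPM (counts scaled to the library total) in PYC pools and 1688 CPM in PV pools. Its medians were 513 CPM in SST and 512 CPM in VIP pools. Pvalb had a median of 76.3 CPM in PV pools (14.7 to 141) but reached 34.5 CPM in SST and 32.7 CPM in VIP pools. Sst had a median of 817 CPM in SST pools, and its highest VIP library was at 439 CPM. Vip had a median of 527 CPM in VIP pools and at most 33.8 CPM in the other types. Slc17a7 was not at 0 in interneuron pools, with medians of 273 CPM in PV, 347 CPM in SST and 484 CPM in VIP pools against 731 CPM in PYC pools. Markers of other cells were present in each group. Summed over the 8 markers of oligodendrocytes, group medians were 497 to 1068 CPM, and over the 10 markers of microglia they were 47.9 to 99.5 CPM. Genes encoded in the mitochondrion made up 0.215% to 2.51% of 6 libraries and at least 8.31% of each of the others.

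Nearly all core and regulatory subunits were expressed in all 4 types, and the mean level of the regulatory subunits stood above that of the core. Levels of different genes are compared as CPM per kb of exon. Of the 48 members 17 had a count in each of the 83 libraries, among them 9 of the 11 non-ATPase and 3 of the 6 ATPase subunits of the regulatory particle, and 2 alpha but no beta subunits of the core. Across the 7 standard alpha and 7 standard beta subunits, the mean per kb was exceeded by that of the 17 regulatory subunits in 83 of 83 libraries, with a median ratio of 1.90 and a range of 1.11 to 4.38. The ratio is one of means, and not every regulatory subunit exceeded the core. Psmc2, Psmc6, Psmd1, Psmd3, Psmd6, Psmd8, Psmd11, Psmd13 and Psmd14 had medians of 4.88 to 12.4 CPM per kb over all libraries. These lay within the range of the standard core subunits, 3.42 (Psma2) to 14.8 (Psma5). The other regulatory subunits ran from 17.5 (Psmc4) to 43.8 CPM per kb (Psmc5). The ratio also depends on the gene length used. With the longest coding transcript in place of all exons, an alternative added after the data were seen, its median was 1.60 and it was above 1 in 81 of 83 libraries.

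**Figure D1:**
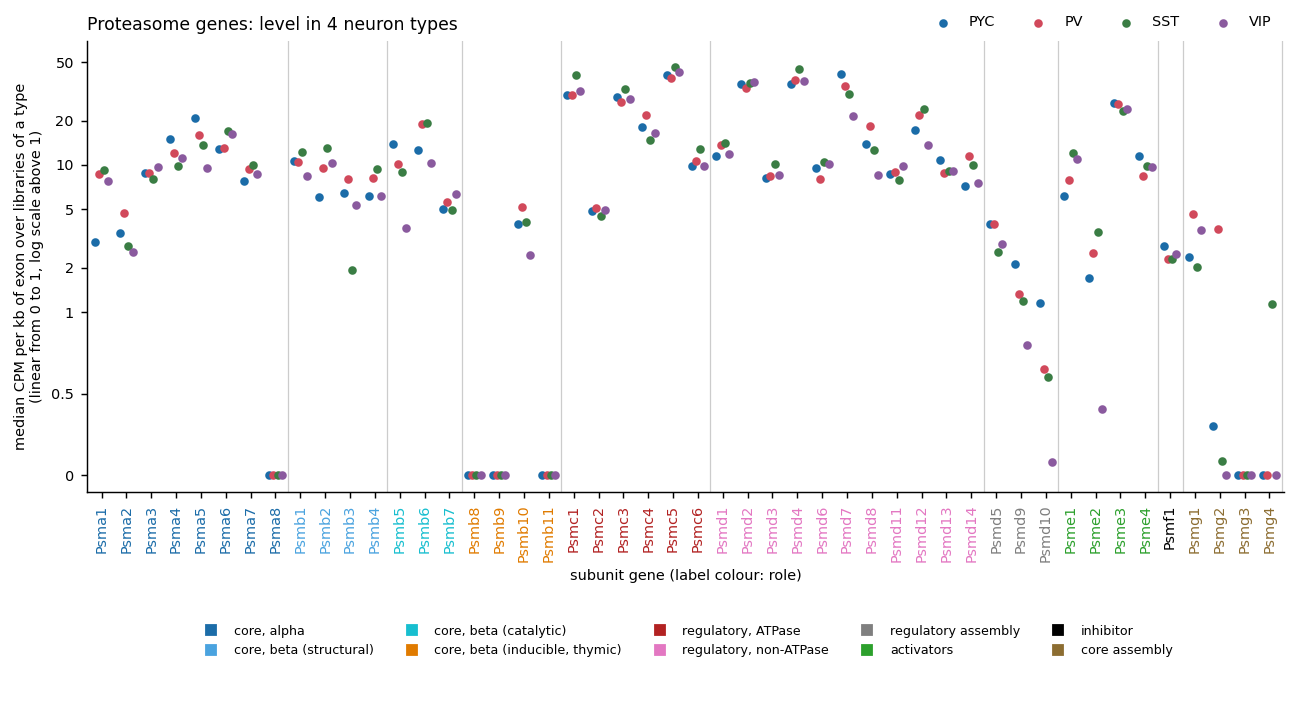
Median CPM per kb of exon over the libraries of each neuron type (points: 21 PYC, 20 PV, 21 SST and 21 VIP libraries) for the 48 genes, grouped by role, on an axis that is linear from 0 to 1 and logarithmic above. Psmc5 and Psmd4 lie near the top in each type, and Psma8, Psmb8, Psmb9, Psmb11 and Psmg3 lie at 0 in each.

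Among the alpha subunits Psma5 had the highest median over the 83 libraries, 14.8 CPM per kb, with Psma6 next at 14.6 CPM per kb, and the lowest of the standard members was Psma2 at 3.42 CPM per kb. Psma7, another ring subunit, had a count in every library and a median of 27.9 CPM. The structural beta subunits ran from 5.37 CPM per kb (Psmb3) to 10.5 CPM per kb (Psmb1). The order within a role also depends on the length used: with the longest coding transcript Psma7 was at 24.1 CPM per kb in place of 9.07, above Psma5 at 15.8 CPM per kb.

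The catalytic subunits are Psmb5 (chymotrypsin-like cutting), Psmb6 (caspase-like) and Psmb7 (trypsin-like). Psmb6 had medians of 23.7, 35.3, 36.3 and 19.2 CPM in PYC, PV, SST and VIP pools. Psmb7 had medians of 17.12, 19.05, 17.002 and 21.64 CPM in the same order. Those of Psmb5 were 12.4, 9.10, 8.01 and 3.35 CPM, and it was at 0 in 4 of 21 VIP libraries. For each of the 3 genes the ranges of the 4 types overlapped.

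The inducible beta subunits Psmb8, Psmb9 and Psmb10 replace Psmb5, Psmb6 and Psmb7 in the immunoproteasome of cells exposed to interferon. Psmb8 had counts in 6 of 83 libraries, 71 counts in all, of which 52 came from the old VIP library 6 at 4.69 CPM. All 6 were old (6 of 48 old libraries), and in the 35 young libraries the count of 0 allows a pooled level of up to 0.0117 CPM. Psmb9 had 81 counts in 7 libraries, with a highest level of 7.11 CPM, in 5 of 48 old and 2 of 35 young libraries. Both were thus at 0 in most libraries, where single libraries could hide up to 0.110 to 2.06 CPM (3 counts; such limits cover counting error only). Psmb10 differed from both, with a median of 6.73 CPM, a highest value of 52.1 CPM and 9 libraries at 0. Summed microglia markers had medians of 47.9 to 93.9 CPM in the 4 old groups and 54.3 to 99.5 CPM in the 4 young groups, and their part in the Psmb8 and Psmb9 counts was not tested. Psmb11, the thymic subunit, had 25 counts in 6 libraries. Psma8, an alpha subunit of the testis, had 517 counts in 10 libraries, 235 of them in 1 library. Tap1, whose exons overlap those of Psmb9 on the other strand, was at 0 in 65 libraries.

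The regulatory ATPases ran from a median of 4.88 CPM per kb for Psmc2 to 43.8 CPM per kb for Psmc5. Psmc1 had a count in every library, between 15.3 and 143 CPM. Psmc4 had medians of 39.0, 47.2, 32.0 and 35.4 CPM in PYC, PV, SST and VIP pools, and again the ranges overlapped. Among the non-ATPase subunits Psmd4, a ubiquitin receptor, was highest at 39.6 CPM per kb. Its medians were 100.3, 106, 126 and 105 CPM in PYC, PV, SST and VIP pools. Psmd2, a large scaffold subunit that binds ubiquitin shuttles, had the highest CPM and was at 35.4 CPM per kb, and its libraries ran from 70.6 to 242 CPM. Psmd2 medians lay within 135 to 148 CPM in all 4 types. Lowest per kb was Psmd3 at 8.61, with Psmd11, which clamps the lid to the ATPase ring, at 9.30 and Psmd14, the deubiquitinating enzyme of the lid, at 9.37 CPM per kb.

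Assembly factors were lower. The chaperones of the regulatory particle ran from 0.532 CPM per kb (Psmd10) to 3.60 CPM per kb (Psmd5). Of the core chaperones Psmg1 led at 3.01 CPM per kb, while Psmg3 was at 0 in 50 libraries and Psmg4 in 43. Pomp, which helps the core mature and was not chosen by the symbol rule, had a median of 35.3 CPM. Among the activators Psme3, which caps core particles in the nucleus, stood at 24.6 CPM per kb with a count in every library. Psme4 stood at 9.85 CPM per kb, and the interferon-inducible pair Psme1 and Psme2 at 8.98 and 1.95 CPM per kb. A near copy of Psme2, Psme2b, had a mean of 1.51 CPM, so reads of the pair may have been split. The inhibitor Psmf1 had a median of 2.40 CPM per kb.

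Members varied much between pools of the same group. The median coefficient of variation within a group was 47.2% for the non-ATPase and 50.1% for the ATPase subunits. It was 71.5% for the alpha subunits, 76.4% for the structural beta subunits and 67.6% for the catalytic ones, and 155% for the core chaperones. Psmd2 and Psmd4, the members with the highest mean CPM, had the lowest values, at 28.9% and 35.4%.

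Summed over each particle, libraries of the 4 types and both ages overlapped. The 14 standard core genes together made 351 ± 64.8 CPM in old PYC pools (SD, n = 12). Young PYC pools had 283 ± 77.3 CPM (SD, n = 9). The PV sums were 354 ± 68.7 CPM for old libraries (SD, n = 12) and 382 ± 47.5 CPM for young ones (SD, n = 8). For SST they were 388 ± 75.7 CPM at the old age (SD, n = 12) and 329 ± 67.1 CPM at the young age (SD, n = 9). Old VIP pools stood at 334 ± 83.6 CPM (SD, n = 12), and young VIP pools at 327 ± 70.5 CPM (SD, n = 9). Ranges of old and young libraries overlapped in all 4 types, and the differences went both ways. Since the pools also held markers of other cells, fewer cells of a type in a pool and less of these RNAs per cell cannot be told apart. The 17 regulatory genes made 957 to 1097 CPM in group means, and their age groups overlapped as well. No p was computed for these sums, since the members were chosen with results known.

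**Figure D2:**
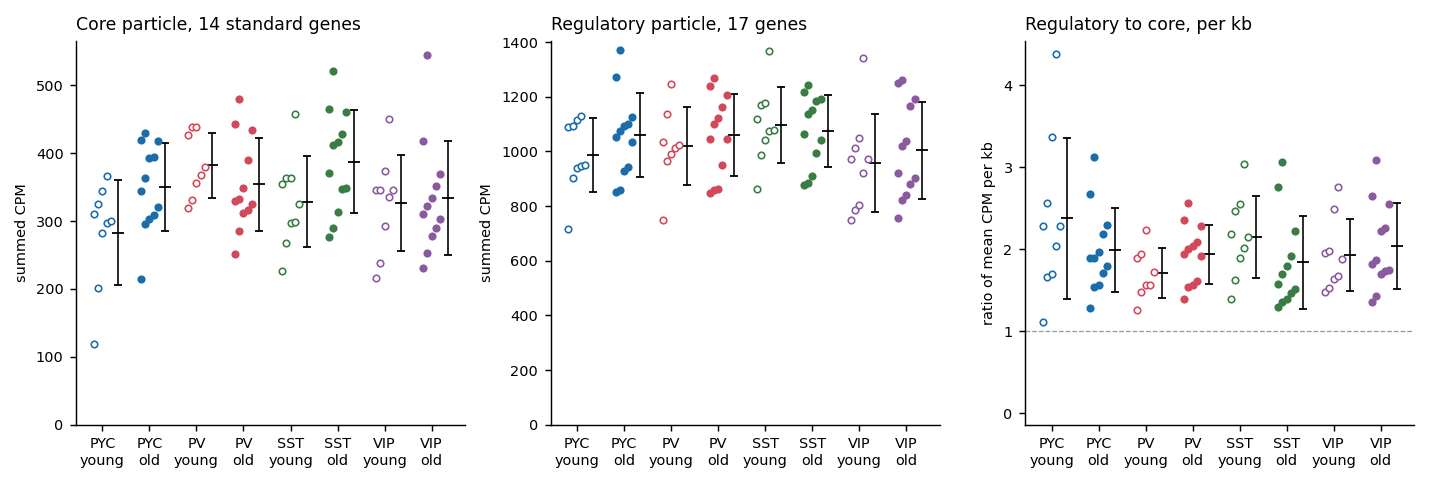
Summed CPM of the 14 standard core genes, summed CPM of the 17 regulatory genes, and the ratio of their mean CPM per kb of exon, for each library in the 8 groups (open points young, filled points old; bar: mean ± SD; dashed line: ratio of 1). Old and young points overlap in every type, and the ratio is above 1 in all 83 libraries.

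The first comparison asked whether the members differ between old and young neurons of a type. No member passed the test in either direction in any of the 4 types (edgeR quasi-likelihood F-test, Benjamini-Hochberg adjustment over all genes tested, call at an adjusted p under 0.05, no minimum fold). Neither did any other gene: percent called was 0.00% of 12508 genes in PYC, 0.00% of 12564 in PV, 0.00% of 12805 in SST and 0.00% of 12337 in VIP. Before adjustment, p was under 0.05 for 1, 0, 2 and 2 members in PYC, PV, SST and VIP, of 41, 42, 42 and 41 tested, against 2.91%, 2.32%, 2.87% and 2.98% of all genes. DESeq2 and limma-voom called no member for age either, and called 0 to 2 genes of each type. Psma8, Psmb8, Psmb9, Psmb11 and Psmg3 were too low to be tested in any type. On simulated counts with the abundance of the members, the test found 4-fold changes in 42.6% of genes in PYC, 22.9% in PV, 36.1% in SST and 21% in VIP, and 2-fold changes in 1.67% to 7.02%. Most changes of 2-fold would thus have been missed. Without the filter on low counts Psmb9 passed in PV, Psmb8 and Psmd1 in SST, and Psmb8 and Psmb9 in VIP pools, with old above young for Psmb8 and Psmb9 and below for Psmd1. The Psmb8 value in SST rested on 9 counts in 1 old library, that of Psmb8 in VIP on 60 counts in 4 old libraries, and those of Psmb9 on 2 old libraries in PV and 2 in VIP, while the young libraries of these types were at 0. In that setting 6355 of 30475 genes passed in PV, 5734 of 31077 in SST and 7117 of 33218 in VIP.

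**Figure D3:**
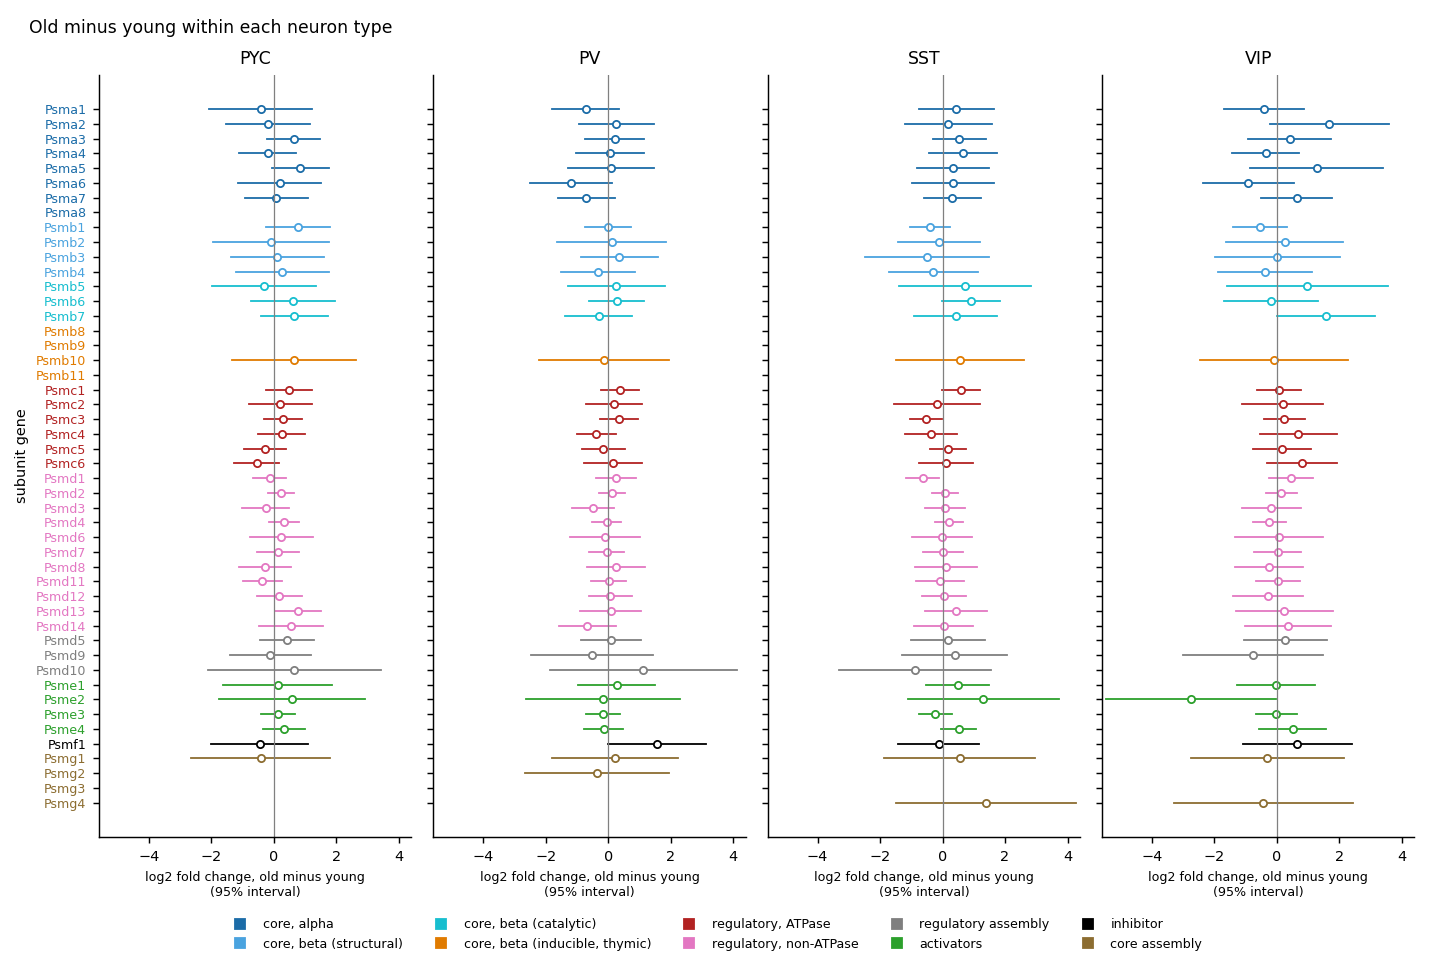
Log2 fold change of each tested member, old minus young, with its 95% interval, in PYC, PV, SST and VIP pools (12 old against 9 young libraries, 8 young for PV); open points did not pass the test, and genes with no point were not tested. Most intervals cross 0 and no point is filled.

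In PYC pools 27 of the 41 tested members were positive (old above young) and 14 negative, with a median log2 fold change of 0.19, against 0.00 over all genes tested. In SST pools 29 of 42 were positive, with a median of 0.17 against −0.01. The counts were 23 of 42 in PV, with a median of 0.06 against 0.01 (log2), and 24 of 41 in VIP, with a median of 0.06 against 0.02. In the SST pools log2 fold changes of all 7 alpha subunits tested were positive (0.18 to 0.66) and those of all 3 catalytic subunits were too (0.43 to 0.91), while those of the 4 structural beta subunits were negative (−0.50 to −0.12). In VIP pools the 6 ATPases were all positive, between 0.06 and 0.82 (log2). None of these values passed the test, no test compared the roles, and the roles were picked after their signs were seen.

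The smallest p in PYC pools belonged to Psmd13, a lid subunit. It ran from 20.6 to 92.1 CPM with a median of 49.0 in old pools and from 10.4 to 41.1 CPM with a median of 29.5 in young pools. The groups overlapped, with old pools mostly above the young median. Its log2 fold change was 0.78 ± 0.36 (SE; p = 0.0376, adjusted p = 1, edgeR). Exons of Psmd13 overlap those of Sirt3 on the other strand, which averaged 22.8 CPM, and the strand setting of the counting is not given. Psma5 followed with 0.85 ± 0.46 (SE), Psmb1 with 0.76 ± 0.51 (SE) and Psmc6, an ATPase, with −0.56 ± 0.36 (SE), all on the log2 scale and none past the test.

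In SST pools Psmd1, the other large scaffold subunit, had the smallest p. Old pools ran from 33.6 to 221 CPM with a median of 84.5, and young pools from 70.2 to 210.0 CPM with a median of 145. The young range lay within the old one. Its log2 fold change was −0.64 ± 0.26 (SE; p = 0.0188, adjusted p = 1, edgeR). The ATPase Psmc3 was at −0.53 ± 0.25 (SE) on the log2 scale, with medians of 64.0 CPM in old and 99.8 CPM in young pools. Its exons overlap Slc39a13 on the other strand, at a mean of 24.1 CPM. On the positive side Psmc1 was at 0.59 ± 0.30 (SE) and Psmb6 at 0.91 ± 0.46 (SE), with Psmb6 medians of 38.2 CPM in old and 21.2 CPM in young pools.

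In PV pools Psmf1, the inhibitor, had a median of 16.8 CPM (2.81 to 59.1) in old and 3.23 CPM (0.474 to 20.7) in young pools, which overlapped. Its log2 fold change was 1.56 ± 0.78 (SE; p = 0.0513, adjusted p = 1, edgeR). Psma6 was at −1.20 ± 0.65 (SE) and Psmd14 at −0.67 ± 0.46 (SE) on the log2 scale. Psmd14 moved to −0.38 without the young PV library 7. Psma7 was at −0.70 ± 0.45 (SE), of which little was left, −0.12, without the young PV library 2, which held 127 CPM against 39.7 CPM in the next.

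In VIP pools the activator Psme2 was low at both ages. Its old pools ran from 0 to 5.32 CPM with a median of 0.180, and young pools from 0 to 23.7 CPM with a median of 3.43. Its log2 fold change was −2.74 ± 1.35 (SE; p = 0.0488, adjusted p = 1, edgeR), and 5 of 12 old and 2 of 9 young libraries were at 0. Psmb7 went the other way. It had a median of 34.6 CPM (0.428 to 70.5) in old and 6.42 CPM (0 to 24.5) in young pools and a log2 fold change of 1.58 ± 0.78 (SE; p = 0.0495, adjusted p = 1, edgeR). Nek6 overlaps it on the other strand, with a mean of 12.7 CPM. Psma2 was at 1.68 ± 0.95 (SE) and Psmc6 at 0.82 ± 0.56 (SE), so that Psmc6 was positive in VIP and negative in PYC pools, neither past the test.

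Psma3, Psma5, Psmc1, Psmd2, Psmd5 and Psmd13 had positive values in all 4 types. These 6 are 15.0% of the 40 members tested in each type, where 7.26% of 10930 genes were positive in all 4. No member was negative in all 4, against 6.84% of genes. Psmd2 gave 0.23, 0.11, 0.06 and 0.13 in PYC, PV, SST and VIP (log2), and Psmc1 gave 0.48, 0.38, 0.59 and 0.06. Some libraries shared mice, so these 4 comparisons cannot be taken as independent.

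Whether age differences were unequal between types was tested by the interaction of age and type. No member passed, and 1 gene of 9604 tested did (0.0104% called). None of the 37 members tested had an unadjusted p under 0.05, against 2.78% of all genes. The smallest unadjusted values were 0.0886 for Psmd1, 0.118 for Psmb1 and 0.133 for Psmc3 (edgeR, adjusted p = 1 for each). Leaving out 1 library at a time gave unadjusted p from 0.0290 to 0.150 for Psmd1. DESeq2 and limma-voom also called no member, and called 2 genes and 1 gene in all. On simulated counts this test found 15.4% of genes with a 4-fold difference in the old PYC group alone, within the members' abundance. Unequal age effects of that size could thus be missed.

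The second comparison asked whether a type differs from the mean of the other 3. It was made over all 83 libraries and over the 9604 genes at or above the median abundance, which include 37 of the 48 members. Percent called was 16.6% in PYC, 22.7% in PV, 7.56% in SST and 12.5% in VIP over all genes, and the members called were 1, 0, 0 and 0 of 37. By direction, genes called higher and lower were 9.15% and 7.50% in PYC, 11.1% and 11.6% in PV, 4.46% and 3.10% in SST, and 6.98% and 5.50% in VIP. Before adjustment p was under 0.05 for 3, 1, 0 and 3 members (8.11%, 2.70%, 0% and 8.11%), against 25.2%, 31.5%, 15.9% and 22.4% of all genes. The median absolute log2 difference of members was 0.14 in PYC, 0.21 in PV, 0.19 in SST and 0.17 in VIP, against 0.29, 0.35, 0.22 and 0.28 over all genes. Slc17a7, the PYC marker, also had medians of 273, 347 and 484 CPM in PV, SST and VIP pools, against 731 CPM in PYC pools. Its bearing on these differences was not tested. On simulated counts with the members' abundance the type test found 38.5% to 55.4% of 2-fold and 87.5% to 96.1% of 4-fold changes. The simulation changed 100 genes at each fold, while the data gave 726 to 2180 calls per type. Since the adjustment depends on how many genes change, recovery in the data may differ. P-values of this comparison, like those of the interaction, treat the 83 pools as independent. The pools came from 9 young and 12 old mice, so that some pools shared mice.

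**Figure D4:**
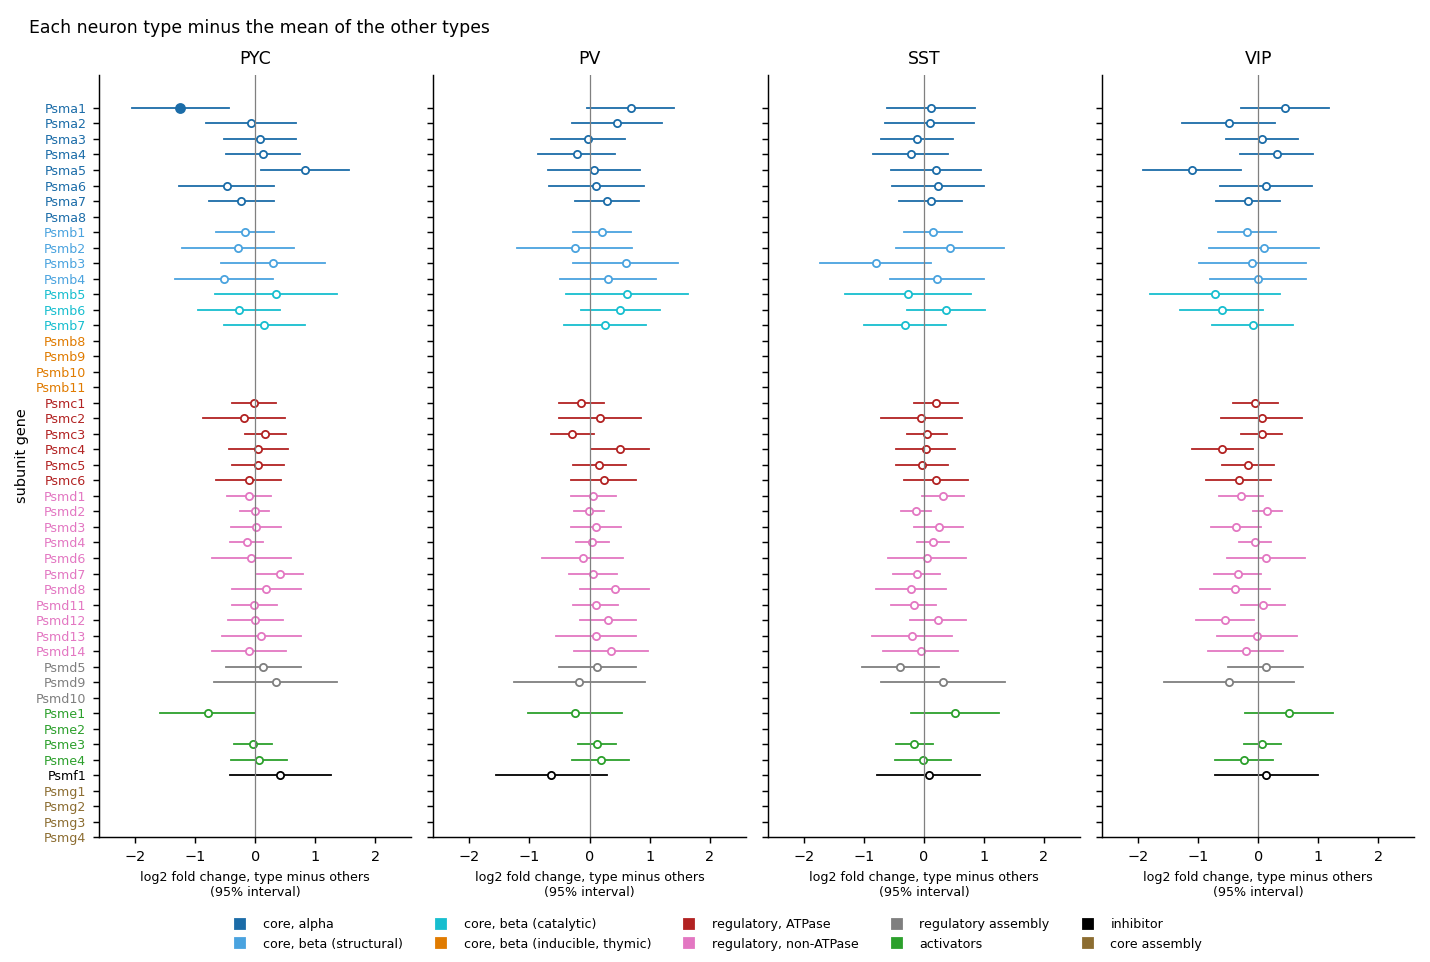
Log2 difference of each tested member between a neuron type and the mean of the other 3 types, with its 95% interval (83 libraries; filled point: adjusted p under 0.05, open points: not past the test). The only filled point is Psma1 in PYC, at −1.25.

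The member called was Psma1, an alpha ring subunit, which was lower in PYC pools. It ran from 0 to 35.8 CPM with a median of 8.84 in PYC pools. In PV pools it had a median of 25.5 CPM and a highest value of 142 CPM. The medians of its groups were 25.7 CPM in old SST, 27.9 CPM in young SST, 20.9 CPM in old VIP and 39.5 CPM in young VIP pools. PYC pools were thus at the low end, but each of the other types also had libraries in their range. The log2 difference was −1.25 ± 0.41 (SE; 95% interval −2.05 to −0.44; adjusted p = 0.0199, edgeR). Its call held in each of the 83 fits that left out 1 library, with adjusted p from 0.0114 to 0.0401. It did not pass with limma-voom (−1.02, adjusted p = 0.0947), in old libraries alone (−1.34, adjusted p = 0.0571) or in young libraries alone (−1.14, adjusted p = 0.470). The fits of a single age hold fewer libraries, and why the call was lost was not tested. Without the 6 libraries low in mitochondrial counts Psma1 passed, at −1.19 (adjusted p = 0.0218, edgeR). The summed markers of microglia had group medians of 64.3 and 93.9 CPM in PYC pools and 47.9 to 99.5 CPM in the others. Those of astrocytes had 268 and 313 CPM against 275 to 389 CPM. The part of these markers in this result was not tested. Nor was that of the oligodendrocyte markers or of Slc17a7 in interneuron pools, both given above.

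Psma5, its neighbour in the ring, was the next smallest in p, in VIP pools. Its medians were 15.6 CPM in old and 5.45 CPM in young VIP pools, where 3 of 9 young libraries were at 0. Old PYC pools had a median of 38.6 CPM and the other groups 16.8 to 26.1 CPM. The log2 difference of VIP was −1.10 ± 0.41 (SE; adjusted p = 0.0649, edgeR), which did not pass. DESeq2 called it (−1.07, adjusted p = 0.0182), and edgeR did so without the young PV library 1 (−1.13), the young VIP library 5 (−1.29) or the old VIP library 12 (−1.19). Limma-voom called Psma5 higher in PYC pools (1.31, adjusted p = 0.00574), where edgeR gave 0.83 ± 0.37 (SE; adjusted p = 0.123).

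**Figure D5:**
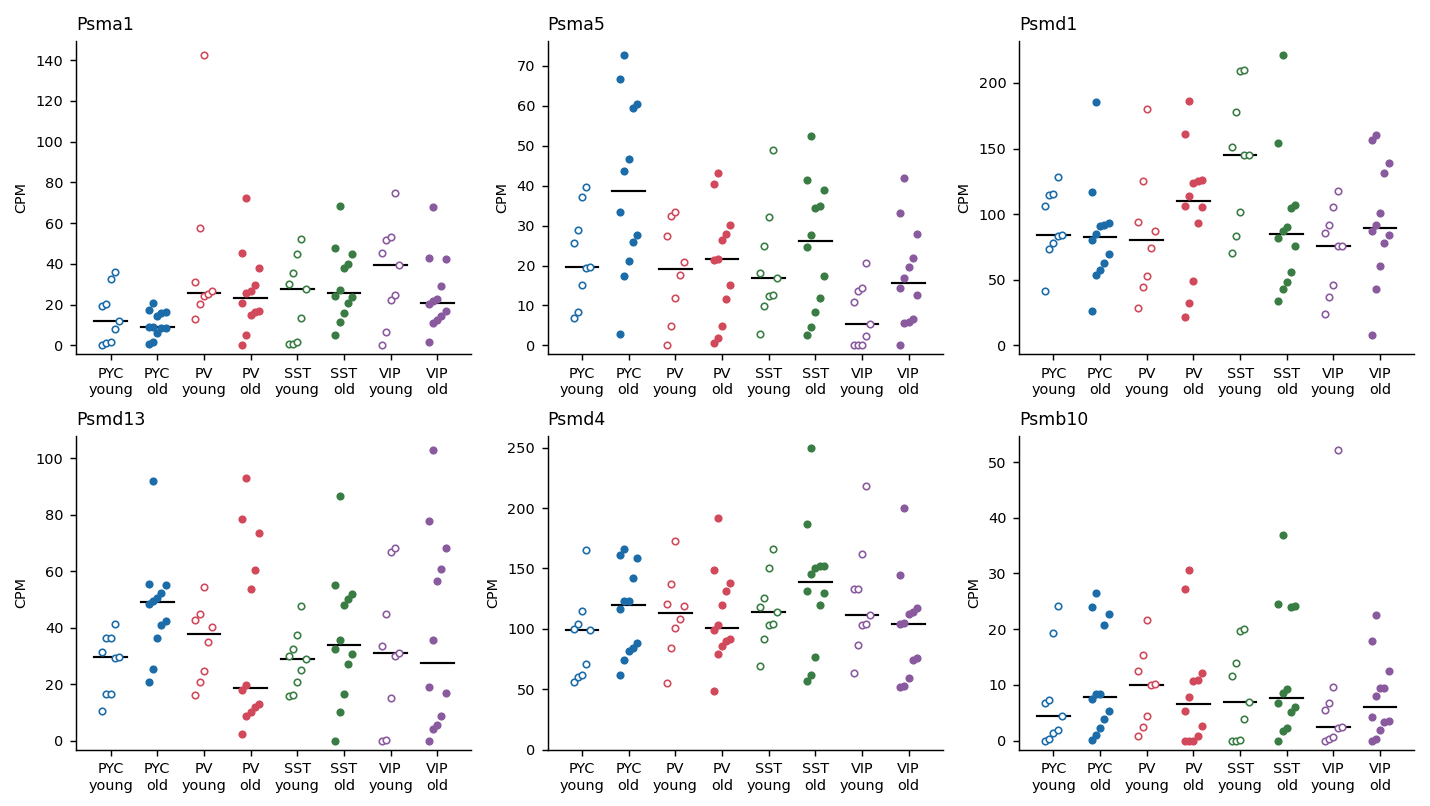
CPM of 6 members in each library of the 8 groups (open points young, filled points old; line: median). Psma1 points of PYC pools lie at or under 35.8 CPM, where points of the other types also lie. For the other 5 genes the groups overlap along their range.

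Of the remaining members none passed with edgeR over all libraries. Limma-voom called Psme1 (−1.55, adjusted p = 0.0364) and Psmd9 (1.42, adjusted p = 0.0318) in PYC pools, and Psmc4 (0.72, adjusted p = 0.00735) and Psmb3 (1.02, adjusted p = 0.0242) in PV pools. Of the 14 core members tested 6 were positive in PYC, 11 in PV, 9 in SST and 5 in VIP pools. Of the 19 regulatory members tested, assembly chaperones included, 10, 14, 10 and 6 were positive in the same order. Over all genes tested 47.3%, 48.8%, 52.0% and 52.8% were positive. The 3 catalytic subunits were all positive in PV (0.25 to 0.63) and all negative in VIP (−0.71 to −0.09) on the log2 scale, and none passed. For the 11 non-ATPase subunits the differences lay between −0.14 and 0.41 in PYC pools, and between −0.55 and 0.15 in VIP pools.

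A list of 34 genes was read beside the members: partners of the particle, factors that control subunit genes, ubiquitin genes with their shuttles, and interferon and peptide loading genes. Of the 25 tested, 1 was called in PYC, 6 in PV, 1 in SST and 2 in VIP. The share was 24.0% in PV, near the 22.7% of all genes, and 4%, 4% and 8% in PYC, SST and VIP. None of the 34 was called for age or for the interaction.

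Nfe2l1, the transcription factor that raises proteasome genes when the proteasome is inhibited, ran from 246 to 575 CPM with a median of 404 in PV pools. In VIP pools it ran from 133 to 479.8 CPM with a median of 266. The log2 difference was 0.42 ± 0.09 (SE; adjusted p = 0.000154) in PV and −0.46 ± 0.10 (SE; adjusted p = 0.000133, edgeR) in VIP. Both calls were lost in the young libraries alone, with adjusted p of 0.105 and 0.0736.

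Ubqln2, a shuttle that carries ubiquitinated proteins to the proteasome, was lower in PV pools, with a median of 117 CPM against 166 CPM in PYC, 196 CPM in SST and 199 CPM in VIP pools. The log2 difference was −0.72 ± 0.13 (SE; adjusted p = 4.60e-06, edgeR). It was higher in VIP pools by 0.48 ± 0.12 (SE; adjusted p = 0.00205, edgeR), a call lost with limma-voom (adjusted p = 0.0585) and in the libraries of either age alone. The related shuttle Ubqln1 was higher in PV pools by 0.44 ± 0.13 (SE; adjusted p = 0.00578, edgeR; log2), a call lost in the old libraries alone. In SST pools Ubqln4 was lower by −0.42 ± 0.13 (SE; adjusted p = 0.0220, edgeR; log2), a call lost without the young SST library 2 (−0.37, adjusted p = 0.0604), with limma-voom (−0.30, adjusted p = 0.0716) and in either age alone. Rad23b, a shuttle of another family, had a median of 142 CPM in PYC pools against 116, 109 and 93.5 CPM in PV, SST and VIP, and a log2 difference of 0.48 ± 0.12 (SE; adjusted p = 0.000903, edgeR), a call lost in the young libraries alone.

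Other PV calls lay near the threshold. The ubiquitin-activating enzyme Uba1 was at 0.30 ± 0.11 (SE; adjusted p = 0.0300, edgeR; log2). Uba1 gave 0.01 in the old libraries alone. Its call was lost without the old PV library 8 or 11 or the young PV library 3, 4 or 5, with adjusted p of 0.0511 to 0.0708, while its log2 difference stayed within 0.27 to 0.33 over all 83 fits that left out 1 library. Akirin2, which helps carry proteasomes into the nucleus, was at −0.76 ± 0.30 (SE; adjusted p = 0.0490), and lost its call in 39 of 83 such fits, over which its log2 difference ran from −0.87 to −0.67.

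For age the context genes with the smallest p did not pass. They were Ufd1 (0.54 ± 0.31, SE) and Ubqln4 (−0.34 ± 0.23, SE) in PYC pools, and Uba1 (−0.33 ± 0.15, SE) and Ubb (0.28 ± 0.13, SE) in PV pools. Without the young PYC library 5 or 2, Ubqln4 was at −0.19 or −0.22 in PYC pools. In SST pools they were Ubqln2 (−0.27 ± 0.17, SE; −0.11 without the young library 6) and Nploc4 (0.44 ± 0.31, SE; 0.28 without the young library 9), and in VIP pools Adrm1, a ubiquitin receptor of the particle, (−0.96 ± 0.38, SE) and Rps27a (1.03 ± 0.54, SE), all log2. For the interaction Uba1 (p = 0.0446) and Rps27a (p = 0.0592) were smallest, each with an adjusted p of 1 (edgeR). In the type comparisons Sem1, a small lid subunit, was at −0.39 ± 0.19 (SE) in PYC, and Ddi2, a protease that activates Nfe2l1, at −0.38 ± 0.18 (SE) in SST pools, neither past the test. The interferon and peptide loading genes were low, as Psmb8 and Psmb9 were: Irf1 was at 0 in 47 libraries, and 1 of the 6 could be tested for type.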

How the data were processed

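Gene counts were deposited by the authors as a table of 48795 genes and 83 libraries, from libraries of the SMARTer stranded pico-input kit, per the labels' protocols. The submitters' processing notes name HISAT2 and GRCm38. The counter, its annotation and its use of strand are not given in the sources. Symbols were matched for 48349 genes, and lengths came from GENCODE exons on GRCm38. CPM is relative to the library total. Libraries were grouped by the labelled type and age. Intervals of fold changes come from edgeR's standard errors and include the spread between libraries, while floors of 3 counts cover counting error only.

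Tests used edgeR 4.0.16 (TMM, robust quasi-likelihood F-test, filterByExpr with a minimum count of 10) in R 4.3.3, with Benjamini-Hochberg adjustment over all genes tested. Age was fitted within each type. Type and the age by type interaction were fitted over the 8 groups, on genes at or above the median abundance. Both tests were tested on simulated counts. Alternatives were other scalings and filters, DESeq2 1.42.0, limma-voom with quality weights (limma 3.58.1) and a factor for the unexplained F number in sample titles. Others left out low mitochondrial libraries (under 3%) or each library in turn, or used either age alone. Figures used matplotlib 3.10.9.

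The members and lists were chosen with earlier results of these data known. Named genes are those called, the 4 with the smallest p for age per type or 3 for the interaction, a panel by role, the highest and lowest per kb in each role, and context genes called or the 2 smallest in p. Psma3, Psmd5, Psmb3, Psmd9 and others named for a shared sign or another tool's call were chosen after their values were seen. Some context genes that the rule names are not reported here.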

Additional observations from a re-analysis of the deposited data

Results flagged for a closer look

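Only the young groups, of 8 or 9 libraries, were searched for a library far from the rest, since the old groups of 12 exceed the 10 libraries the test covers. Of 61 such sets for some of the members, role sums and particle sums, 6 had 1 library far from the rest of its group. For independent sets chance gives about 1 in 20, but these sets are not independent, since the sums share members. In young VIP pools the summed regulatory subunits reached 1343 CPM in library 8, with the next at 1050 CPM. The summed non-ATPase subunits were lowest in the young PV library 5, at 501 CPM, with the next at 671 CPM. The regulatory assembly chaperones summed to 130.3 CPM in the young VIP library 4, against 59.99 CPM in the next. The core assembly chaperones summed to 57.5 CPM in the young SST library 2, against 26.1 CPM in the next. The inducible and thymic beta subunits summed to 55.1 CPM in the young VIP library 3, against 9.69 CPM in the next. Of that sum Psmb10 made 52.1 CPM, and the library is 1 of the 6 with a low mitochondrial share. Psma7 stood at 127 CPM in the young PV library 2, with the next at 39.7 CPM.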

How the results depend on the processing

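No paired analysis was possible because the labels tie no library to a mouse and the replicate numbers only name libraries. Members called for age were 0 in each type under every setting run except without the filter on low counts, which gave 1 in PV, 2 in SST and 2 in VIP. Members called for type in PYC were 3 with limma-voom and 0 in the old or young libraries alone, against 1. Limma-voom gave 2 in PV and DESeq2 gave 1 in VIP, against 0 in each. Leaving out each library in turn gave 0 to 1 in VIP. The causes were not tested. Of 2354 alternative values for 42 named results, 2278 kept their side of the threshold, 74 lost a call, 2 gained one and none reversed direction. Most of these values came from fits that left out a single library. The named age and interaction results had no call to lose, and the interaction values are p-values without a direction. Calls gained outside these named results, such as that of Psma5 in VIP pools with DESeq2, are not counted here. For members at 0, depth sets a limit of up to 2.06 CPM in a single library.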
